A study of Mus musculus with 8 samples.

Results

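The ends of the 19 mouse autosomes were examined for the dimethyl mark on lysine 9 of histone H3 (H3K9me2) in regulatory T cells (Treg) from tumours. Members were taken by position alone, as 10 kb windows of the mm10 build in 2 zones of each autosome. The centromeric zone ran from 3.0 to 8.0 Mb and the distal zone held the last 5 Mb before the telomere. Each zone held 9500 windows, so that 19000 of 240566 autosomal windows from 3.0 Mb on (7.90%) were members. The other 221566 windows are called the interior. H3K9me2 was mapped by CUT&RUN, which releases antibody-bound chromatin with a tethered nuclease. There were 3 libraries of tumour Treg from mice with a conditional knockout of Jmjd1c in Treg (genotype JMJD1CTregcKO, here cKO1 to cKO3) and 3 of tumour Treg from wild-type mice (JMJD1CWT, here WT1 to WT3). Open chromatin was mapped by ATAC-seq, in which a transposase cuts accessible DNA, in 1 library of tumour Treg and 1 of spleen Treg, both JMJD1CWT. All mice were C57BL/6 and 8 to 12 weeks old. Treg had been enriched with magnetic beads and then sorted by fluorescence. The Cre driver of the knockout, the tumour model and the number of mice in each library were not given in the labels. Since nothing says that the replicates were separate animals, the p-values measure the spread between these libraries, which may be technical. A peak list cannot show whether Jmjd1c was deleted, so the genotypes were taken from the labels.

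H3K9me2 is a mark of silent chromatin that is laid down mainly by the methyltransferases EHMT1 and EHMT2 and is recognised by HP1 proteins. JMJD1C belongs to the JMJD1 (KDM3) family of Jumonji demethylases, whose members remove methyl groups from this residue. Mouse autosomes have their centromere at an end, next to blocks of repeated satellite DNA that are packed as constitutive heterochromatin. The mm10 assembly holds no sequence for the first 3.0 Mb of each chromosome, so the centromeric zone is the first assembled sequence on the side of that heterochromatin. Not all of it is unique. The distal zone borders the subtelomere, which in mammals is often rich in genes and in CG dinucleotides.

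Promoters from both zones show the kinds of sequence that the ends hold. They are the first 250 bases of each gene's promoter entry from RefSeq (GRCm38.p6, the assembly of mm10). They are written 5′ to 3′ on the strand of the gene, with every CG dinucleotide in capitals. Overlap with peaks was scored over the whole entry. The entry of Nr4a1 lies inside its gene span (chr15:101253902-101274795), not before it. Suv39h2 (chr2:3474987-3475236, minus strand, centromeric zone) encodes an H3K9 methyltransferase of heterochromatin, and Nr4a1 (chr15:101266596-101266845, plus strand, distal zone) encodes a nuclear receptor induced by T cell receptor signals. Both promoters held an ATAC peak in tumour and in spleen and no H3K9me2 peak in any of the 6 libraries. Vip (chr10:5638968-5639217, plus strand, centromeric zone) encodes a neuropeptide. Its promoter held no ATAC peak and carried H3K9me2 in 2 cKO and 2 WT libraries. Gm14322 (chr2:177759038-177759287, plus strand) and the zinc-finger gene Zfp971 (chr2:178023034-178023283, plus strand) lie in the distal zone of chromosome 2, and their promoters carried H3K9me2 in all 6 libraries. That of Zfp971 also held an ATAC peak in both tissues, that of Gm14322 in neither. Mcm10 (chr2:5012792-5013041, minus strand, centromeric zone), a replication factor gene, was likewise open in both tissues, with H3K9me2 in 3 cKO libraries and 1 WT library.
Suv39h2: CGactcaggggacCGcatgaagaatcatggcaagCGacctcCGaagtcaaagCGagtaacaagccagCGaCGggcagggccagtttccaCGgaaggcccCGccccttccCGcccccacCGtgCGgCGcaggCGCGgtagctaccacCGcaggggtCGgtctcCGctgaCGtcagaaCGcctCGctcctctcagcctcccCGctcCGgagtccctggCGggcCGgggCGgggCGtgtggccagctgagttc
Nr4a1: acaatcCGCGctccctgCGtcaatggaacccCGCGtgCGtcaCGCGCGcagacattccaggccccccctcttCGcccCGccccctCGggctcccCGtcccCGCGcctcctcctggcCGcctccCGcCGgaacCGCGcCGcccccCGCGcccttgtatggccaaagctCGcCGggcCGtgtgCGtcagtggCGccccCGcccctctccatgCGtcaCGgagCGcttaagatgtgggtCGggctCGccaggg
Vip: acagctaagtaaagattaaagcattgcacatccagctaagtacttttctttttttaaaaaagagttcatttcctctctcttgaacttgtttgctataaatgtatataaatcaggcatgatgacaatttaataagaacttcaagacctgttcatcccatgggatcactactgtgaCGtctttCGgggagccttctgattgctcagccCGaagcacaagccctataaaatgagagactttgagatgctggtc
Gm14322: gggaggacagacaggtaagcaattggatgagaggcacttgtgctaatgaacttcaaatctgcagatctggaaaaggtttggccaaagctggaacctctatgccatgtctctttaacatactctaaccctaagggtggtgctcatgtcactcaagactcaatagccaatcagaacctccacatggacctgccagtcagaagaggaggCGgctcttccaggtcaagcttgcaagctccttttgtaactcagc
Zfp971: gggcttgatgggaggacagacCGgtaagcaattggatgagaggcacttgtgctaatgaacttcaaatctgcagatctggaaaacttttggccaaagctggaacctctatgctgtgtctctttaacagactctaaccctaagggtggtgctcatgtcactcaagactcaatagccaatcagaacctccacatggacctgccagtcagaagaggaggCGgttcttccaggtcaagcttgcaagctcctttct
Mcm10: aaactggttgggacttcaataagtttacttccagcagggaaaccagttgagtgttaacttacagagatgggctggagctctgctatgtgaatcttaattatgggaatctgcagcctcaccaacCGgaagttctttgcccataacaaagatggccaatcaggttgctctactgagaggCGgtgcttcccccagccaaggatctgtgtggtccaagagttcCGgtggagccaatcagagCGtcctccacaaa
Suv39h2 and Nr4a1, open and without H3K9me2, held 27 and 34 CG dinucleotides. Zfp971 and Mcm10, open and with H3K9me2, held 2 and 4, and Vip and Gm14322, with H3K9me2 and no ATAC peak, held 3 and 1. Gm14322 and Zfp971 were identical at 232 of 241 aligned bases, with 91 identical bases in a row. Reads from copies this alike could be assigned to either, so their values are uncertain.

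The H3K9me2 libraries held 24774509 to 30313851 tags and 101728 to 166835 autosomal peaks, which covered 3.43 to 5.46% of the autosomes, most in cKO1. Because the lists differ in length, a region's covered percent was divided by that of all autosomes in the same library, and this ratio is called relative coverage. Per the file headers, the sample names behind the lists of cKO1 and cKO3 both carry the code KO4, and the name prefixes differ between the cKO and WT lists, so genotype and any difference in preparation that these names record cannot be told apart. Among markers of Treg, 6 of 7 genes (Ctla4 not) had an ATAC peak within 5 kb in both libraries. For CD8 T and NK cells it was 1 of 5 genes in both libraries (Eomes, with no peak at Cd8a or Cd8b1), for B cells 2 of 5 in both (no peak at Ms4a1), and for myeloid cells 2 of 5 in tumour and 0 of 5 in spleen. For melanocyte and epithelial genes it was 3 of 6 in tumour and 2 of 6 in spleen, and for stromal and endothelial genes 2 of 5 and 3 of 5. The part of other cells in the results was not tested.

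The centromeric zone carried less H3K9me2 peak coverage than the interior in every library, while the mean of the distal zone over all peaks lay near that of the interior. With only the upper 50% of each list by score, the distal zone lay below the interior in 6 of 6 libraries, by −0.198 (exact p = 0.03125, adjusted 0.03125), further than the centromeric zone (−0.0749). Relative coverage of the centromeric zone was 0.937, 0.919 and 0.896 in cKO1 to cKO3 and 0.920, 0.899 and 0.914 in WT1 to WT3. The interior was at 1.0004 to 1.0073 in all 6. All 6 centromeric values thus lay below the interior, and the cKO and WT libraries were interleaved. In the distal zone the values were 0.987, 1.07 and 1.03 in cKO and 0.910, 1.02 and 1.02 in WT, on both sides of the interior, with WT1 lowest. The centromeric zone was lower than the interior by −0.0893 ± 0.0151 (SD, n = 6), in 6 of 6 libraries, with p = 0.03125 in a two-sided exact sign-flip test, the smallest that 6 libraries allow. Adjusted over the 3 zone comparisons this was 0.09375, which missed the threshold of 0.05. The distal zone differed from the interior by 0.00358 ± 0.0570 (SD, n = 6), higher in 4 libraries and lower in 2 (exact p = 0.844). The centromeric zone was below the distal zone by −0.0928 ± 0.0612 (SD, n = 6), in 5 of 6 libraries, all but WT1 (exact p = 0.0625, adjusted 0.09375).

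Part of each zone held no peak at all. Stretches of 100 kb or more with no peak in any of the 8 libraries, which include the last 100 kb of every chromosome, took up 3.70 Mb (3.89%) of the centromeric zone, 2.97 Mb (3.13%) of the distal zone and 30.97 Mb (1.40%) of the interior. They were found after the data had been seen, and what they are was not tested. With them left out, relative coverage of the centromeric zone was 0.936 ± 0.0154 (SD, n = 6), from 0.918 to 0.960, and that of the distal zone 1.02 ± 0.0557. The centromeric zone then still lay below the interior in 6 of 6 libraries, by −0.0654. No H3K9me2 peak was found in any of the 6 libraries in 19.8% of centromeric windows, 13.3% of distal windows and 13.6% of interior windows. A peak in all 6 was found in 4.42, 5.79 and 4.61%, so the distal zone held the largest share of windows that carried the mark in every library.

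The distal zone differed from the interior in the strength of its peaks. Peaks were ranked in each library by the score that the authors deposited, which is in tags of that library, and a peak in the upper 50% of its own list is called stronger. In the distal zone 37.98, 40.3 and 38.9% of peaks were stronger in cKO1 to cKO3 and 37.8, 37.5 and 37.4% in WT1 to WT3. The interior held 50.4 to 50.6%, so all 6 distal values lay more than 10 percentage points below it. In the centromeric zone the shares were 51.4, 51.2 and 50.7% in cKO and 50.4, 49.7 and 50.5% in WT, around those of the interior. The distal zone was lower than the interior by −12.2 ± 1.15 percentage points (SD, n = 6), in 6 of 6 libraries, with exact p = 0.03125 and 0.0625 when adjusted over the 2 zones. The centromeric zone differed by 0.143 ± 0.642 points, higher in 3 libraries and lower in 3 (exact p = 0.625). The median score of distal peaks was 6.5 to 8.0 against 8.0 to 9.5 in the interior, lower in 6 of 6 libraries. This and the coverage with only the upper 50% of each list, given above, rest on the same score and are not separate findings. Distal peaks were also shorter in 6 of 6 libraries, with a mean length of 760 to 805 bp against 788 to 835 bp in the interior. Their median fold over the surrounding region, as the authors deposited it, was higher in 6 of 6 libraries (2.75 to 3.07 against 2.5 to 2.78).

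**Figure D1:**
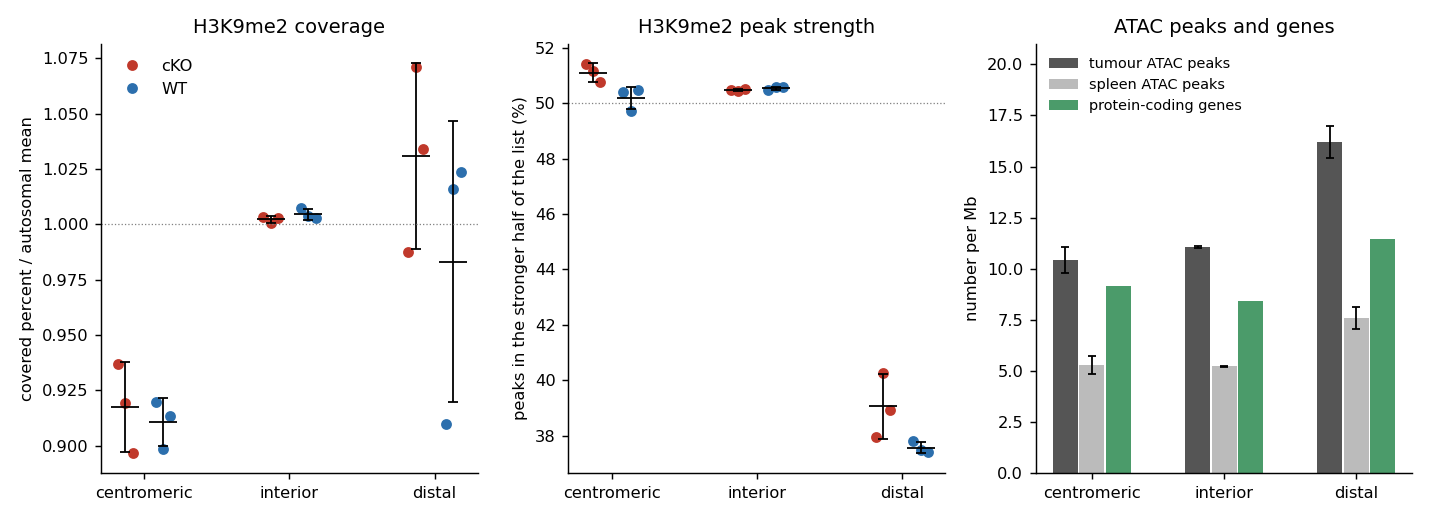
Left, relative H3K9me2 coverage of the centromeric zone, distal zone and interior in each library (points, with group means). Middle, percent of the peaks in each zone that are in the upper 50% of their own list by score. Right, tumour ATAC peaks, spleen ATAC peaks and genes per Mb, with 95% intervals for counting error. The 6 centromeric points lie at 0.896 to 0.937, below the interior, and the 6 distal shares lie at 37.4 to 40.3%, below the 50.4 to 50.6% of the interior.

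In numbers of peaks, the centromeric zone held 51.1 ± 12.0 H3K9me2 peaks per Mb in cKO and 42.9 ± 4.36 in WT (SD, n = 3 each). The distal zone held 60.9 ± 10.9 and 48.3 ± 6.07 and the interior 56.5 ± 12.4 and 47.5 ± 5.19. The centromeric zone was below the interior in 6 of 6 libraries and the distal zone in 1 of 6. The distal zone thus combined as many or more peaks per Mb with weaker and shorter ones in 5 of 6 libraries.

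The distal zone was the more accessible and gene-dense end. Tumour Treg had 16.2 ATAC peaks per Mb in the distal zone, 10.4 in the centromeric zone and 11.1 in the interior. The distal zone held 1537 of 27012 autosomal peaks, 5.69% (95% exact Clopper-Pearson interval 5.42 to 5.97%), while each zone is 3.95% of the autosomal length. The centromeric zone held 989 peaks, 3.66% (3.44 to 3.89%), below its share of the length. Spleen Treg had 7.59 peaks per Mb in the distal zone, 5.26 in the centromeric zone and 5.23 in the interior, so the order of the distal zone above the interior was the same in both tissues. The tumour list was longer than the spleen list everywhere, by 1.98 times (1.77 to 2.21) in the centromeric zone, 2.13 times (1.95 to 2.33) in the distal zone and 2.11 times in the interior. With 1 library for each tissue there is no replicate check, and the intervals cover counting error only. Both ATAC lists were called, each with its own peak width, and what that does to the ratio was not tested. Protein-coding genes numbered 11.4 per Mb in the distal zone, 9.14 in the centromeric zone and 8.39 in the interior. Per gene, tumour Treg had 1.41 ATAC peaks in the distal zone, 1.14 in the centromeric zone and 1.32 in the interior.

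The profile along the chromosome shows where within a zone coverage was low. In the first 0.5 Mb after 3.0 Mb, relative coverage was 0.948 to 1.16 over the 6 libraries, with 2 of them below 1. From 0.5 to 1.0 Mb into the zone it was 0.918, 0.923 and 0.900 in cKO and 0.727, 0.813 and 0.702 in WT. From 1.0 to 1.5 Mb it was 0.895, 0.947 and 0.966 in cKO and 0.784, 0.735 and 0.811 in WT. In both steps all 6 libraries were below 1 and the 3 WT libraries were below the 3 cKO libraries. These steps hold 12.9 and 12.1 genes per Mb, against 7.26 in the first. The step with the lowest mean of the zone, 0.803, lay from 4.5 to 5.0 Mb, below 1 in 6 of 6 libraries. It holds only 5.16 genes per Mb. From 3.5 to 4.0 Mb, with 6.95 genes per Mb, all 6 libraries were also below 1 (0.866 to 0.991). From 1.5 to 2.0 Mb, with 12.8 genes per Mb, coverage was 0.838 to 1.04, below 1 in 4 libraries. Low steps were thus not only the gene-dense ones. At the distal end, the last 0.5 Mb lay at 0.842 to 0.952, below 1 in 6 of 6 libraries, and includes the last 100 kb, in which no library has a peak. From 2.0 to 2.5 Mb before the end relative coverage was above 1 in all 6, at 1.09 to 1.22. From 0.5 to 1.0 Mb before the end the 3 WT libraries lay below the 3 cKO libraries (0.859 to 0.944 against 1.01 to 1.07). The same held from 3.0 to 3.5 Mb (1.05 to 1.07 against 1.08 to 1.15). The share of stronger peaks ran otherwise. It was 29.3% on average from 2.0 to 2.5 Mb and 29.0% from 3.5 to 4.0 Mb before the end, and 49.9% in the last 0.5 Mb.

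**Figure D2:**
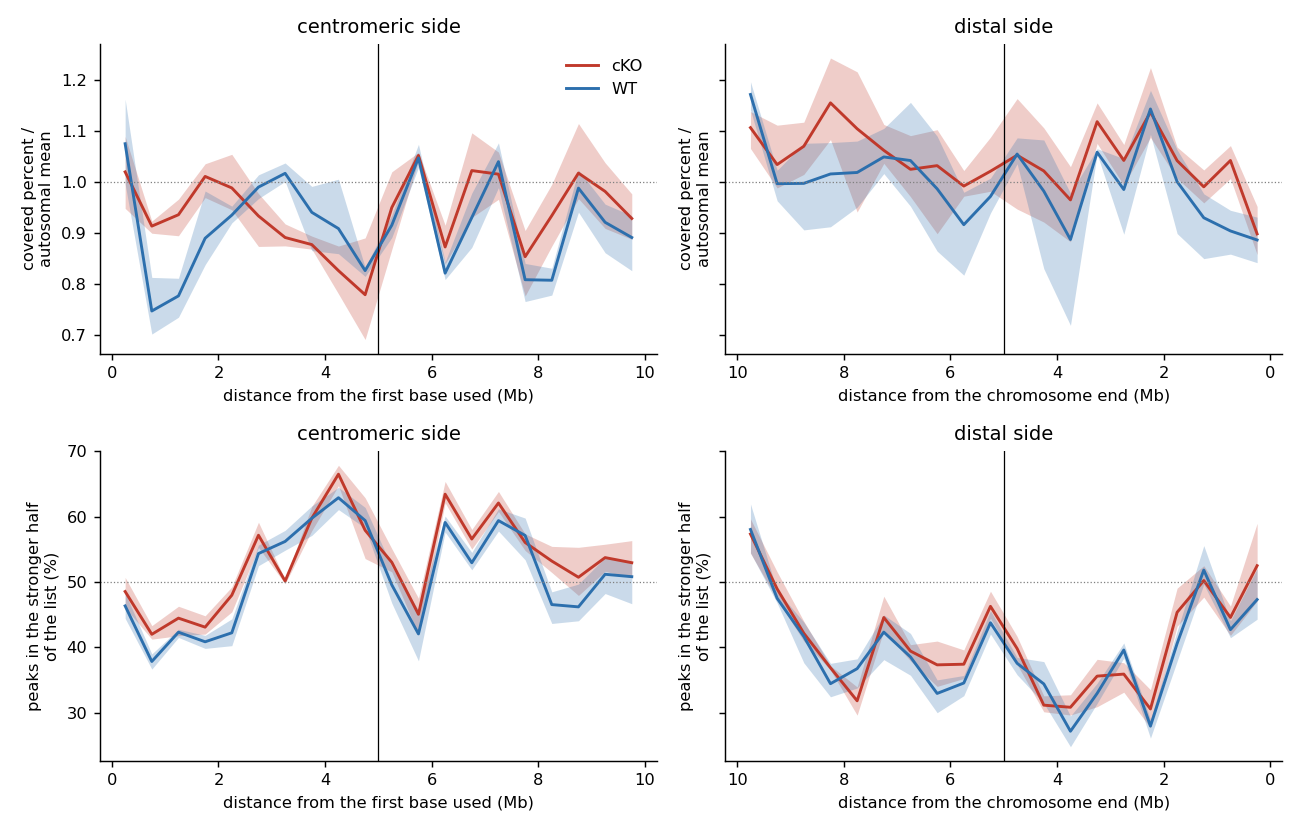
Relative H3K9me2 coverage and the percent of stronger peaks in steps of 0.5 Mb over the first 10 Mb from 3.0 Mb on and the last 10 Mb before the chromosome end, averaged over 19 autosomes. Lines are means of 3 cKO and 3 WT libraries and bands their range. For coverage, the WT band lies below the cKO band from 0.5 to 1.5 Mb into the centromeric zone and above it from 3.0 to 3.5 Mb. Beyond that zone it lies below from 8.0 to 8.5 Mb. On the distal side it lies below from 0.5 to 1.0 Mb and from 3.0 to 3.5 Mb before the end. Beyond the distal zone it lies below from 8.0 to 8.5 Mb and above from 9.5 to 10 Mb. In the other steps the coverage bands overlap, and single steps were not tested. The mean share of stronger peaks is 29.0 to 37.8% between 2.0 and 4.5 Mb from the distal end.

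The ends of single chromosomes differed more than the zone means. Over the 19 chromosomes, mean relative coverage had an SD of 0.168 in the centromeric zone and 0.227 in the distal zone. In the centromeric zone 8 chromosomes lay below their own interior in all 6 libraries and 2 above it. In the distal zone these were 6 and 3. Chromosome 19 had the lowest centromeric zone, with 0.469, 0.668 and 0.707 in cKO and 0.264, 0.508 and 0.489 in WT. This 5 Mb zone holds 183 genes and 146 tumour ATAC peaks, more than any other centromeric zone. With the stretches without peaks left out its mean was 0.615 and it was still the lowest. Chromosome 17 came next, with 0.746, 0.771 and 0.697 in cKO and 0.490, 0.740 and 0.672 in WT. Chromosome 11 followed, with 0.754, 0.927 and 0.763 in cKO and 0.513, 0.744 and 0.665 in WT, where the groups did not overlap. In all 3 zones WT1 was the lowest library.

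The highest centromeric zones were those of chromosomes 18, 2 and 4, with means of 1.22, 1.15 and 1.09. On chromosome 2 the values were 1.16, 1.29 and 1.17 in cKO and 1.12, 1.12 and 1.07 in WT, all above 1. This zone holds Suv39h2 and Mcm10. On chromosome 4, which holds the gene of the T cell exhaustion factor Tox, they were 1.22, 1.05 and 1.11 in cKO and 0.971, 0.977 and 1.19 in WT, and the groups overlapped.

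Among distal zones, chromosomes 15, 17 and 11 were lowest. Chromosome 15, which holds a keratin cluster and Nr4a1, had 0.577, 0.878 and 0.663 in cKO and 0.378, 0.813 and 0.684 in WT. Chromosome 11, with Socs3, Rptor and Cd7, had 0.541, 0.938 and 0.778 in cKO and 0.383, 0.843 and 0.744 in WT. These zones are gene-rich, with 130 and 108 genes and 145 and 188 tumour ATAC peaks. Chromosome 17 had 0.774, 0.514 and 0.671 in cKO and 0.842, 0.787 and 0.618 in WT, and is the opposite kind of zone, with 4 genes and 3 tumour ATAC peaks. The highest were chromosomes 19, 12 and 8, with means of 1.42, 1.34 and 1.25 and every library above 1. Chromosome 19 thus had the lowest of the 19 centromeric zones and the highest of the 19 distal zones. Its distal values were 1.32, 1.42 and 1.57 in cKO and 1.39, 1.49 and 1.34 in WT, in a zone of 40 genes.

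**Figure D3:**
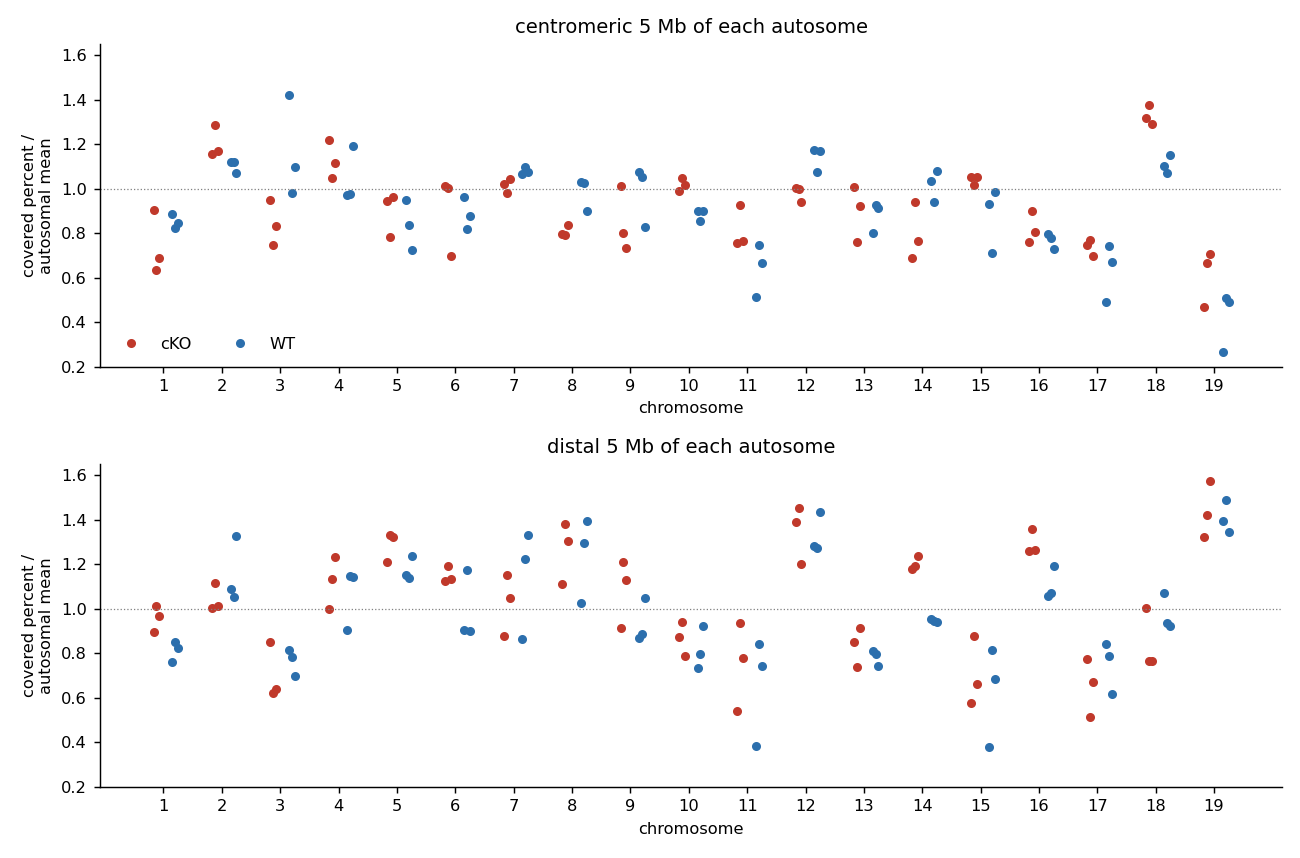
Relative H3K9me2 coverage of the centromeric and the distal zone of each autosome, with 1 point for each of the 6 libraries. Chromosome 19 spans the range, with a centromeric mean of 0.517 and a distal mean of 1.42, and the points of WT1 are lowest in the gene-rich zones of chromosomes 11, 15 and 19.

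Strength separated zones that coverage did not. Of the low distal zones, only 8.74% of peaks on chromosome 15 (7.22 to 10.8% over the 6 libraries) and 9.44% on chromosome 11 (7.89 to 13.7%) were stronger. On chromosome 17, whose coverage was as low, 92.8% were stronger (90.0 to 97.3%). The gene-poor distal zones of chromosomes 3 and 18 were like it, with 88.2 and 83.0%. In the centromeric zone the range ran from 13.7% on chromosome 19 to 90.7% on chromosome 3, which holds 7 genes. The distal zone was below its own interior in all 6 libraries on 11 chromosomes and above it on 4, and the centromeric zone below on 8 and above on 8.

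Across the 19 chromosomes, the share of stronger peaks was lower where genes and open chromatin were dense. As a description over 19 points that come from the same 6 libraries, the correlation with genes per Mb was r = −0.655 (rho = −0.704) in the centromeric and r = −0.591 (rho = −0.689) in the distal zone. With tumour ATAC peaks per Mb it was r = −0.768 (rho = −0.733) and r = −0.862 (rho = −0.807). For relative coverage and genes per Mb it was weaker, r = −0.506 (rho = −0.407) and r = −0.229 (rho = −0.0176). The distal zone of chromosome 10 stood off this order. It has 162 genes, the most of any distal zone, yet 52.1% of its peaks were stronger (48.5 to 59.6%).

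**Figure D4:**
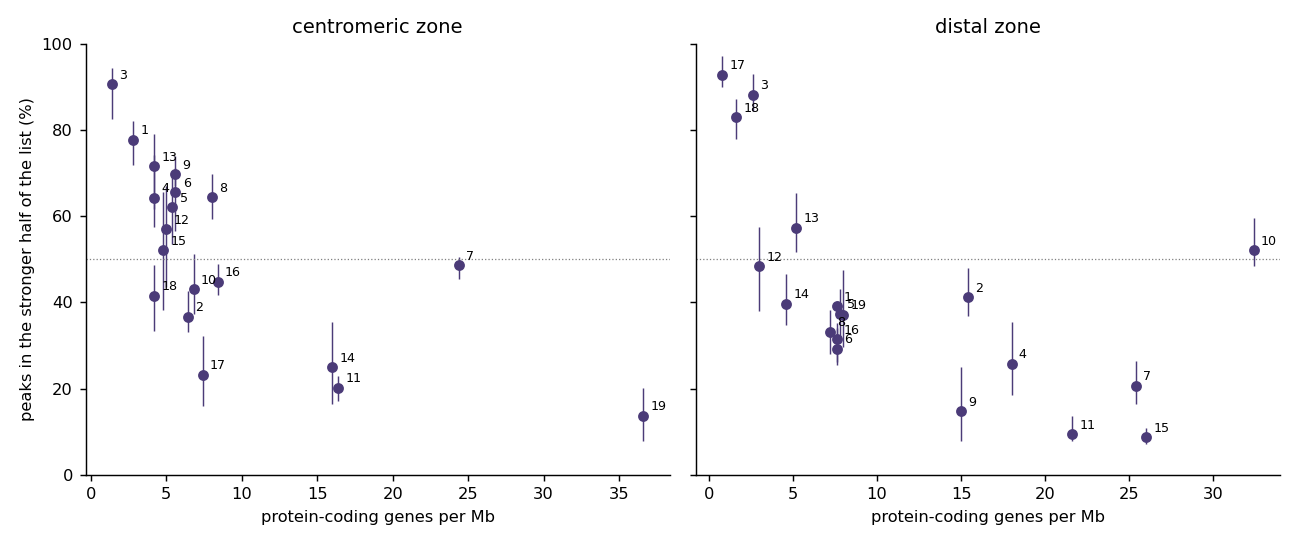
Percent of H3K9me2 peaks in the upper 50% of their own list against protein-coding genes per Mb, for the centromeric and distal zone of each autosome. Points are means of 6 libraries, bars their range and numbers the chromosomes. Chromosomes 15 and 11 are at 8.74 and 9.44% in the distal zone, while chromosome 10 is at 52.1%.

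Gene-dense tiles that include sensory receptor genes held a larger share of strong peaks than other gene-dense tiles. In 1 Mb tiles of both zones with 10 or more genes and fewer than 5 olfactory or vomeronasal receptors (64 tiles), 22.2% of peaks were stronger (19.1 to 24.1% over the libraries). In the 6 tiles with 10 or more genes of which 5 or more were such receptors, on chromosomes 7 and 10, it was 55.1% (50.6 to 58.9%), close to the 56.2% of the 120 tiles with under 10 genes. The 6 receptor tiles were also less open than the 64, with a median of 10 tumour ATAC peaks against 21, and 4 in the 120 tiles. These receptors are known from sensory neurons, and their expression was not measured here. What the difference in strength goes back to was not tested. The 3 receptor tiles of the centromeric zone lie side by side on chromosome 7, with a mean relative coverage of 1.17 ± 0.0427 in cKO and 1.35 ± 0.0525 in WT (SD, n = 3). The 3 distal receptor tiles lay lower, at 0.787 ± 0.0753 in cKO and 0.867 ± 0.153 in WT, and all 6 together at 0.980 and 1.11.

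The distal zone held a smaller share of strong peaks than the interior in every gene-count class. In 1 Mb tiles without genes, only 5 in the distal zone and 254 in the interior, 72.4% of distal and 90.2% of interior peaks were stronger, means over 6 libraries. With 1 to 4 genes it was 61.8 and 69.0%, with 5 to 9 genes 34.1 and 43.2%, and with 10 or more genes 21.8 and 28.4%. The distal value was below the interior value in 6 of 6 libraries in each of the 4 classes. Open chromatin was not matched within a class. The median of tumour ATAC peaks was 15 in distal and 10 in interior tiles with 5 to 9 genes, and 25 and 20 with 10 or more. With tiles compared within the same gene-count class, the distal zone was −7.86 points from the interior and the centromeric zone 2.41 points from it, each in the same direction in 6 of 6 libraries (exact p = 0.03125, adjusted 0.03125). Under that comparison, chosen after the data had been seen, both zones passed the threshold, in opposite directions. The distal exact p was the same without gene-count classes, so its adjusted p moved only through the centromeric test adjusted with it.

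Of the 3 tiles in each zone with most tumour ATAC peaks, mean H3K9me2 coverage was below 1 in all 3 distal tiles and in 2 of the 3 centromeric ones. The centromeric tile with most tumour ATAC peaks, 62, lies at 5 to 6 Mb of chromosome 19 and holds Rela, an NF-kappaB subunit. Its relative coverage was 0.354, 0.570 and 0.581 in cKO and 0.224, 0.575 and 0.504 in WT. At the distal end, the tile at chr10:126694994-127694993, which holds the interleukin-4 signal transducer gene Stat6, had 58 ATAC peaks and 0.707, 1.02 and 0.788 in cKO against 0.406, 0.844 and 0.828 in WT. The tile of chromosome 11 with Cd7, a T cell surface receptor, had 51 ATAC peaks and 0.346, 0.797 and 0.517 against 0.125, 0.572 and 0.414. WT1 was the lowest library in each of these 3 tiles. The other tiles richest in ATAC peaks were, in the centromeric zone, 4 to 5 Mb of chromosome 11 with the cytokine genes Osm and Lif (40 ATAC peaks, mean relative coverage 0.648 over 6 libraries) and 4 to 5 Mb of chromosome 7 with Lair1, an inhibitory receptor gene (32 peaks, 1.11). In the distal zone it was chr10:127694994-128694993 with Stat2 and Ikzf4, a Treg transcription factor gene (48 peaks, 0.751). In all 1286 distal windows with a tumour ATAC peak, relative coverage was 0.940 ± 0.164 in cKO and 0.713 ± 0.195 in WT (SD, n = 3), with overlapping groups. In the 8138 distal windows with no ATAC peak it was 1.04 ± 0.0209 and 1.03 ± 0.0429. The 848 centromeric windows with a tumour ATAC peak were at 0.995 ± 0.156 in cKO and 0.834 ± 0.155 in WT, against 0.909 ± 0.0357 and 0.918 ± 0.0258 in the 8592 without any. There cKO2, cKO3, WT2 and WT3 were higher at windows with a peak (1.10, 1.07, 0.906 and 0.940) than at windows without (0.899, 0.879, 0.896 and 0.910), and cKO1 and WT1 lower. In the interior the values were 1.01 and 0.765 with a tumour ATAC peak and 1.0006 and 1.03 without any.

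The highest 1 Mb tiles were of mixed content. The highest of the distal zone, at chr12:115129023-116129022, holds 50 variable segments of the immunoglobulin heavy chain, which are used in B cells, and had 1.87, 2.20 and 1.69 in cKO and 2.12, 2.03 and 2.09 in WT. The next, at chr2:177113225-178113224, holds the zinc-finger genes Zfp970, Zfp972, Zfp971 and Zfp931, and 2 of its promoters are printed above. KRAB-type zinc-finger clusters are known carriers of H3K9 methylation, mainly in the trimethyl state, which was not mapped here. The highest centromeric tile, at 4 to 5 Mb of chromosome 10, holds Esr1 and Akap12, which form no gene family, with 1.59, 1.77 and 1.43 in cKO and 1.495, 1.29 and 1.87 in WT.

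Of single windows, 24 centromeric (0.253%) and 31 distal ones (0.326%) held 1 kb or more of peaks in all 6 libraries. In the interior 525 windows did (0.237%), so such windows were not particular to the ends. The strongest of these, at chr19:59811567-59821566, lay 71.9 kb from Rab11fip2, a vesicle transport gene, and held 2287, 2867 and 1983 bp in cKO and 4190, 3874 and 1519 bp in WT. The next, at chr4:3260001-3270000, held 3115, 2009 and 1905 bp in cKO and 1982, 3189 and 3218 bp in WT. Neither held an ATAC peak, and the groups overlapped in both. The following 6, by mean length of peaks, were 7.40 kb from Mrgprd on chromosome 7 (2518 bp), at Gm20767 on chromosome 13 (2504 bp), 3.23 kb from Sdr9c7 on chromosome 10 (2454 bp), 227 kb from Rab10 on chromosome 12 (2428 bp), 21.1 kb from Gm3752 on chromosome 14 (2407 bp) and 56.7 kb from Gm14410 on chromosome 2 (2307 bp). No protein-coding gene span reached into 7 of these 8 windows. By score, the strongest centromeric peak in 5 of 6 libraries, all but cKO2, lay at about 3.11 Mb of chromosome 12, with scores of 409.0 to 920.5 tags. It ranked 2 or 3 of its whole library, while the strongest distal peak of each library scored 26 to 52 tags. In cKO2 the strongest lay at chr9:3006592-3007367 (82.5 tags). Peaks were called without input, and whether reads from repeated sequence gather at these sites was not tested.

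Open promoters of the zones were richer in CG dinucleotides than all promoters of the zones. RefSeq promoters numbered 694 in the centromeric and 886 in the distal zone. An ATAC peak of tumour Treg overlapped 40.1 and 43.7% of them, against 41.4% in the interior. The open promoters had a median of 17 and 19 CG dinucleotides in 250 bases, and all promoters of the zones 10 and 12. H3K9me2 in 1 or more libraries was found at 23.5 and 21.3%, with a median of 11 and 9. In 4 or more libraries it was found at only 2 centromeric and 6 distal promoters, with a median of 3.5 and 2.5 CG. These 8 include the printed promoters of Vip, Mcm10, Gm14322 and Zfp971, and 1 of the 2 and 3 of the 6 also held a tumour ATAC peak. In the interior, the 48 promoters with H3K9me2 in 4 or more libraries had a median of 10 CG, the same as all interior promoters, and the 30 of them with a tumour ATAC peak had 12.5. Few CG dinucleotides were thus no general feature of marked promoters. The letters CG were counted on the printed strand, and 52.2% of centromeric, 57.0% of distal and 51.4% of interior promoters held 10 or more. Per library, 5.43 ± 1.48% of centromeric promoters carried the mark in cKO and 5.09 ± 1.58% in WT (SD, n = 3), and 4.82 ± 1.11 and 4.67 ± 1.53% of distal ones.

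Loss of JMJD1C was compared with wild type to ask whether the ends gain or lose the mark. As whole zones they did not separate the genotypes. Mean relative coverage of the centromeric zone was 0.918 ± 0.0203 in cKO and 0.911 ± 0.0109 in WT (SD, n = 3), a difference of 0.00693 (SE 0.0133, two-sided exact permutation p = 0.8). With zones of 2.5 Mb it was 0.0888, with the 3 cKO libraries above the 3 WT libraries (exact permutation p = 0.1, adjusted 0.3). For the distal zone it was 1.03 ± 0.0419 and 0.983 ± 0.0636, a difference of 0.0477 (SE 0.0440, exact p = 0.4, adjusted 0.75). That difference was 0.0110 without WT1. With 3 against 3 libraries the smallest possible p is 0.1, so no difference of any size could have passed. The share of stronger peaks, relative to the interior, was higher in cKO by 0.979 points in the centromeric zone and 1.55 points in the distal zone (exact p = 0.1 for both), and the 3 cKO libraries were above the 3 WT libraries in each.

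At the level of 5 Mb tiles fitted with limma over all 472 autosomal tiles, 2 of the 38 chromosome zones rose in cKO and none fell. Of all tiles, 2.75% rose and 8.69% fell. The distal zone of chromosome 14 had 1.18, 1.19 and 1.24 in cKO and 0.954, 0.944 and 0.939 in WT, a difference of 0.257 (SE 0.0563, limma adjusted p = 0.0157). The centromeric zone of chromosome 18 had 1.32, 1.38 and 1.29 in cKO and 1.10, 1.07 and 1.15 in WT, a difference of 0.221 (SE 0.0642, limma adjusted p = 0.0483). In both zones the groups lay apart. The next were lower in cKO in the centromeric zones of chromosome 3 (−0.324, limma adjusted p = 0.0621), chromosome 14 (−0.219, limma adjusted p = 0.0814) and chromosome 8 (−0.177, limma adjusted p = 0.0850), and higher in the distal zone of chromosome 16 (0.188, limma adjusted p = 0.0850). The groups did not overlap in 5 centromeric and 3 distal zones that were higher in cKO and in 4 centromeric and 0 distal zones that were lower, against 20.3 and 16.5% of all tiles. Neither call was made with covered percents left unscaled, lists cut to equal length or an arcsine scale. None was left without cKO2 or without cKO3. Without cKO1, 5 were made, and 55 of all 472 tiles rose and 63 fell. The call on chromosome 18 was lost without any 1 of the WT libraries. Without WT2 both calls were lost, and 1 centromeric zone fell. Without WT1, 1 distal zone rose and 1 fell, and without WT3, 1 distal zone rose. Over all 472 tiles, 9 rose and 33 fell without WT1, 1 and 34 without WT2, and 10 and 39 without WT3.

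At 1 Mb, 4 of 94 centromeric tiles tested rose in cKO and 9 fell, and of 95 distal tiles none rose and 2 fell. Of all 2392 tiles tested, 2.51% rose and 10.1% fell. The 4 that rose held genes and open chromatin, with a median of 13 genes and 9.5 tumour ATAC peaks. The 9 centromeric tiles that fell had a median of 1 gene and 0 ATAC peaks, against 5.5 genes and 6 ATAC peaks over all centromeric tiles tested. An exception was the tile of chromosome 14 that fell, with 16 genes. This order was not particular to the ends: in interior tiles without genes mean relative coverage was 0.816 in cKO and 1.15 in WT, and in those with 10 or more genes 1.03 and 0.913. In centromeric tiles it was 0.719 and 0.890 without genes and 0.929 and 0.868 with 10 or more. All 15 calls were lost with unscaled percents, equal list lengths and an arcsine scale. At unadjusted p under 0.05, 19 of the 189 tiles of the zones were higher and 15 lower with scaling, and 35 higher and 2 lower without it. Of all 2392 tiles, 275 were higher and 353 lower with scaling, and 481 higher and 90 lower without it, so this shift was not particular to the ends. The calls numbered 2 without cKO3, 4 without WT1 and 7 without cKO2. Over all tiles tested, 7 rose and 131 fell without cKO3, 26 and 121 without WT1, and 27 and 131 without cKO2.

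Of the tiles that rose, 3 to 4 Mb of chromosome 15 holds Ghr, the growth hormone receptor gene, and Selenop, a plasma selenium carrier. It had 0.981, 0.647 and 0.874 in cKO and 0.396, 0.283 and 0.398 in WT, a difference of 0.475 (SE 0.130, limma adjusted p = 0.00424). At 4 to 5 Mb of chromosome 12, with Adcy3, an adenylate cyclase gene, the values were 0.919, 1.48 and 1.39 against 0.698, 0.750 and 0.870 (limma adjusted p = 0.0117). The others were 5 to 6 Mb of chromosome 5 with Cdk14 (0.439, SE 0.139, limma adjusted p = 0.0173) and 5 to 6 Mb of chromosome 11 with Xbp1, a factor of the unfolded protein response (0.414, SE 0.142, limma adjusted p = 0.0318). In all 4 the groups did not overlap. The tile with Xbp1 was the most open of the 4, with 27 tumour ATAC peaks.

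Of the tiles that fell, 6 to 7 Mb of chromosome 12, which holds no protein-coding gene, moved most. It had 1.04, 0.476 and 0.689 in cKO and 1.47, 1.44 and 1.81 in WT, a difference of −0.838 (SE 0.148, limma adjusted p = 2.17e-06). Its neighbour at 7 to 8 Mb, with Apob, the main protein of low-density lipoprotein, differed by −0.530 (limma adjusted p = 0.00537). The tiles at 3 to 4 Mb of chromosome 3 with Hnf4g, a nuclear receptor gene, and at 5 to 6 Mb of chromosome 8 with Slc10a2, the ileal bile acid transporter gene, differed by −0.554 and −0.506. Both genes are known from gut and liver. The tile at 6 to 7 Mb of chromosome 14 differed by −0.573, with 1.26 in cKO and 1.84 in WT. Its 16 genes are mostly near-identical predicted copies, so reads may be misplaced among them. The other centromeric tiles that fell were 7 to 8 Mb of chromosome 8 (−0.579), 6 to 7 Mb of chromosome 5 (−0.479), 6 to 7 Mb of chromosome 3 (−0.468) and 3 to 4 Mb of chromosome 1 (−0.405). At the distal end the zinc-finger cluster of chromosome 2 had 1.49, 1.95 and 1.72 in cKO and 2.38, 1.62 and 2.64 in WT (−0.492, SE 0.171, limma adjusted p = 0.0346). A tile without genes from 91987272 to 92987271 of chromosome 17 had 0.959, 0.570 and 0.824 against 1.64, 1.18 and 0.815 (−0.428, limma adjusted p = 0.0335). These 2 distal tiles and that of chromosome 1 ranked below the 8 smallest p by which tiles were otherwise named. In both distal tiles the groups overlapped, as they did at 6 to 7 Mb of chromosome 5. Groups that did not overlap were seen in 12 higher and 12 lower centromeric tiles and 9 higher and 4 lower distal tiles, against 13.7 and 13.3% of all tiles.

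**Figure D5:**
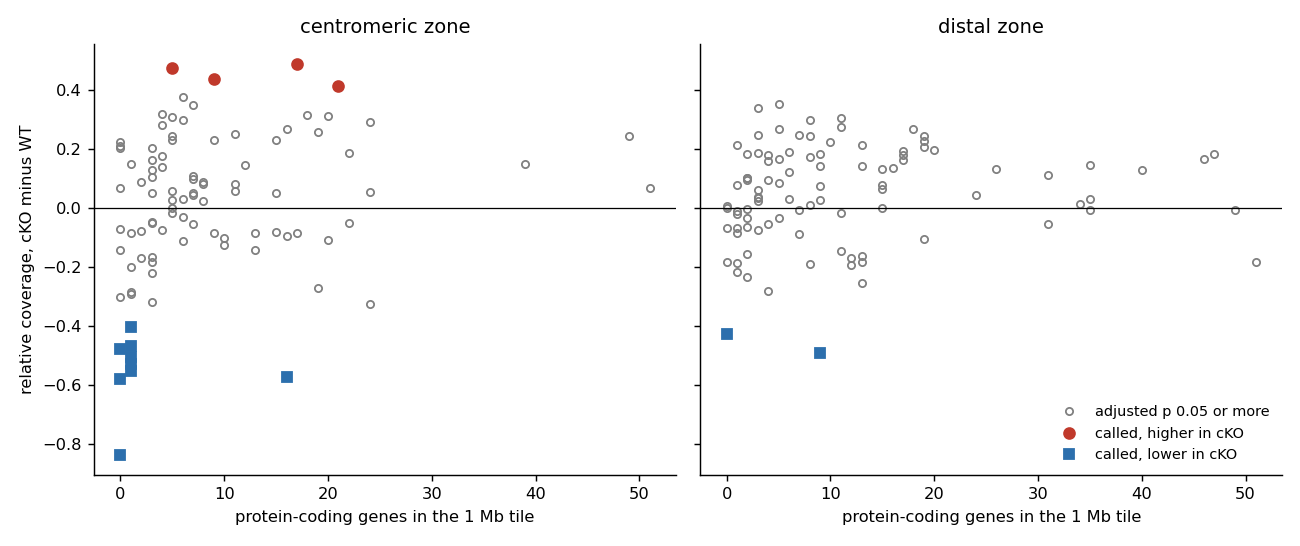
Difference in relative H3K9me2 coverage between cKO and WT (group means) against the number of protein-coding genes, for each 1 Mb tile of the centromeric and distal zones, with called tiles marked. The 4 tiles that rose hold genes, while the largest fall, −0.838, is in a tile of chromosome 12 without genes.

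At 10 kb no window of the zones was called by limma, of 14425 tested, the lowest adjusted p being 0.798. At unadjusted p under 0.05, 188 were higher and 232 lower, against 1.29 and 1.85% of all windows. Groups that did not overlap were seen in 257 higher and 241 lower centromeric windows and in 340 higher and 221 lower distal windows, against 3.89 and 3.44% of all windows.

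No gene of the zones was called either. Of 1645 genes tested with 5 kb on each side (698 centromeric, 947 distal), 74 were higher and 21 lower at unadjusted p under 0.05 in limma, against 4.96 and 1.52% of all genes tested, and the lowest adjusted p was 0.585. The groups did not overlap at 60 centromeric genes higher and 22 lower in cKO and at 75 distal genes higher and 26 lower, against 9.46 and 2.91% of all genes. The median difference in relative coverage was 0.142 in the centromeric and 0.108 in the distal zone, and 0.166 over all genes tested.

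Genes of T cells and Treg numbered 8 in the centromeric and 10 in the distal zone, and all but Osm, whose coverage was too low, were tested. The values of genes are covered percents, while differences and the comparison of groups are in relative coverage. The median difference was 0.281 for 7 centromeric and 0.0889 for 10 distal genes, with 0 called, 0 at unadjusted p under 0.05 in limma and 0 with groups apart. Rela was covered for 0, 5.53 and 2.42% in cKO and 0, 0 and 0% in WT. Dnmt3a, the de novo DNA methyltransferase gene, was covered for 0.407, 4.44 and 3.40% in cKO and 0.407, 1.63 and 0.407% in WT. At both genes cKO1 lay at or below WT libraries, so the groups overlapped. At Stat6 the values were 4.29, 7.05 and 3.57% in cKO and 1.78, 3.57 and 0% in WT. Tagap, an activation-induced GTPase regulator, had 2.65, 5.29 and 0% in cKO and 0% in every WT library. Lif, a cytokine gene, Cd7, Rictor, a subunit gene of mTOR complex 2, and Stat2, an interferon signal transducer gene, completed the 8 with the smallest p, at differences of −0.447, −0.703, 0.281 and 0.301, with overlapping groups. The gene of the methyltransferase Suv39h2 had a difference of −0.00681, the closest to 0 of these genes, at 3.71 ± 0.343% in cKO and 3.05 ± 1.83% in WT (SD, n = 3).

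Of the chemokine receptor genes, which guide leukocyte migration, 10 lie in the distal zone of chromosome 9, with 9 tested, and 12 in the interior. The median difference of the 9 distal genes was 0.791, against 0.247 for 11 interior ones tested. Of the distal genes 6 of 9 were above 0, against 8 of 11 interior ones and 11337 of 18135 of all genes tested. Of the 9, 0 were called and in 0 were the groups apart. Cxcr6, a homing receptor of tissue T cells, was covered for 8.80, 10.4 and 0% in cKO and 0% in all WT libraries (difference 1.30, unadjusted p = 0.0485, limma adjusted p = 0.709). Ccr2, a receptor of monocyte-attracting chemokines, had a difference of the other sign, with 6.602, 2.90 and 6.59% against 27.1, 0 and 11.7%. Ccr8, a marker of tumour Treg, carried little, with 0, 2.93 and 0% in cKO and 0, 6.25 and 0% in WT. It had 2 ATAC peaks within 5 kb in tumour and 1 in spleen. The fractalkine receptor gene Cx3cr1 had 1.69, 9.42 and 3.38% against 0, 1.69 and 1.69%. Differences were 1.27 for Xcr1, 1.03 for Ccr1 and 0.161 for Ccr9. In none of the genes named here did the 3 cKO libraries all lie on the same side of the 3 WT libraries.

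The TNF receptor genes tested in the zones, 6 in number, lie at the distal ends of chromosomes 4 and 7, and 13 more lie in the interior. Tnfrsf22, a decoy receptor gene, was covered for 11.02, 4.02 and 7.23% in cKO and 0, 2.01 and 0% in WT (difference 1.45, SE 0.426, unadjusted p = 0.00927, limma adjusted p = 0.673), and its groups did not overlap. Its neighbour Tnfrsf26 had 10.1, 3.32 and 6.54% against 0, 3.32 and 0%. Tnfrsf23, the third of this cluster, did not follow them, with 10.7, 8.83 and 4.28% against 4.05, 12.6 and 4.90%. At the receptor genes on chromosome 4 the genotypes differed by less than the spread between libraries. Tnfrsf4 (OX40) had 1.81 ± 2.99% in cKO and 3.28 ± 1.88% in WT, and Tnfrsf18 (GITR) 3.98 ± 3.98 and 3.03 ± 5.25% (SD, n = 3), both costimulatory receptor genes of Treg. Tnfrsf14, the gene of a receptor for BTLA, had 2.92 ± 3.16 and 3.77 ± 1.24%. The list of 6 had a median difference of 0.0303, with 0 called and 2 at unadjusted p under 0.05.

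Among zinc-finger genes, which encode DNA-binding proteins and often lie in clusters, 16 of 20 tested in the centromeric and 8 of 13 in the distal zone had a positive difference, against 11337 of 18135 of all genes tested and 195 of 299 interior zinc-finger genes. In limma 2 in each zone were higher in cKO at unadjusted p under 0.05, and 0 were called. The median difference was 0.638 and 0.767. Against the 9.46% of all genes with groups apart and higher and the 2.91% with groups apart and lower, the groups lay apart at Zfp444 (1.13), Zfp597 (1.13), Zfp941 (1.08), Zfp386 (1.37) and Zfp445 (1.03), which were higher in cKO, and at Zfp950 (−0.989) and Zfp28 (−0.689), which were lower. They overlapped at Zfp787 (−1.08), Zfp131 (0.767) and Zfp750 (1.01). Zfp386, at the distal end of chromosome 12, had 9.94, 6.98 and 8.88% in cKO and 0, 1.96 and 3.92% in WT (difference 1.37, limma adjusted p = 0.694). Zfp971, whose promoter is printed above, had 11.5, 4.43 and 5.89% against 16.5, 12.9 and 5.28%.

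The sensory receptor families and the keratins, structural proteins of epithelia, also had 0 calls. In limma 1 of 9 centromeric olfactory receptors was higher at unadjusted p under 0.05, and of 40 distal ones 2 were higher and 3 lower. Of the 40, the groups lay apart at 2 that were higher and 2 that were lower in cKO, 5% each, against 9.46 and 2.91% of all genes and 2.38 and 3.92% of interior olfactory receptors. As values of single genes, Olfr786 had 10.8, 17.4 and 7.40% in cKO and 0% in all WT libraries, and Olfr791, on the same chromosome, had 0% in all cKO libraries and 15.9, 5.04 and 10.4% in WT. The others with groups apart were Olfr777 (difference 1.33) and Olfr811 (−1.65) in the distal zone and Olfr1346 (1.33) in the centromeric zone. Of 18 centromeric vomeronasal receptors, Vmn2r31 was lower, with 7.68, 6.34 and 6.70% against 11.7, 9.93 and 9.65%, and Vmn2r33 higher, with 6.55, 6.38 and 6.16% against 3.32, 3.87 and 3.87%. Vmn2r18, in the distal zone of chromosome 5, was higher by 0.496. The groups overlapped at Vmn1r55 (1.88), Vmn2r129 (0.639), Vmn1r61 (−2.32), Vmn2r32 (−1.16), Vmn1r63 (0.596) and Vmn1r58 (0.592). The receptors on chromosome 7 are close copies in a cluster, so their reads could be split among them. Of 23 keratin genes tested, Krt90 was higher (4.86, 7.28 and 7.14% against 0, 0 and 2.43%) and Krt83 lower (0, 3.05 and 0% against 4.10, 3.05 and 3.97%), with limma adjusted p = 0.702 and 0.709. On the relative scale their groups did not overlap. They overlapped at Krt1 (0.898), Krt8 (1.07), Krt82 (−0.722), Krt6b (−1.58), Krt5 (−0.913) and Krt73 (0.471).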

How the data were processed

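H3K9me2 CUT&RUN peaks of tumour Treg (3 cKO and 3 WT libraries) and ATAC peaks of tumour and spleen Treg (1 library each) were used as the authors deposited them, in mm10. Tools listed in the submitters' processing notes are deepTools, HOMER, SAMtools 1.11, Picard, Bowtie2 2.4.2 and Trim Galore 0.6.6. Per the file headers, HOMER called peaks in each library alone, without input and without pooling: H3K9me2 in histone style (size 500 bp, at least 5 tags, Poisson p 0.05 against the surrounding 10 kb) and ATAC in factor style. Per the file headers, the deposited signal of a peak is tags scaled to 10000000, the score is in tags of the library, and HOMER gave each peak a fold over its local region with a p-value. A fraction in the deposited ATAC lists, the focus ratio, was not used. The deposited H3K9me2 lists also give the region size in bp, which is in another unit and was not used either. The deposited H3K9me2 lists hold 24.4 to 43.9% of the peaks in their headers. Such peaks mark local enrichment, so broad even domains can be missed and the total level of the mark cannot be compared. At 24774509 to 30313851 tags (H3K9me2) and 11068821 and 11293674 tags (ATAC, spleen and tumour), weak peaks are limited by depth.

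Peaks were merged in each library and the covered percent computed for zones, 5 Mb and 1 Mb tiles, 10 kb windows and genes (20661 autosomal protein-coding genes of RefSeq GRCm38.p6 with 5 kb on each side), then divided by the autosomal mean of the library. Zones were compared with the interior by exact sign-flip tests over 6 libraries, and cKO with WT by exact permutation tests. For tiles, windows and genes limma 3.58.1 was used (R 4.3.3) with a trend and no block, with Benjamini-Hochberg adjustment over the whole table, a threshold of 0.05 and features under a mean of 1% covered left out. ATAC shares have exact Clopper-Pearson intervals. Other scalings, zone widths, list lengths, filters, a replicate block and leaving out each library were tried. Named were list members with the 8 smallest p in lists under 60 members or with groups apart, the 3 highest and 3 lowest chromosome zones, called tiles (8 in each direction), 8 windows, and the 3 tiles in each zone with most tumour ATAC peaks; some list members are not reported here. The members and lists were chosen with earlier results of these data known. Same-numbered cKO and WT libraries correlated at 0.461, 0.193 and 0.0888 over 2397 tiles, the last under 0.1, so the numbers were not taken as pairs.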

Additional observations from a re-analysis of the deposited data

How the results depend on the processing

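The centromeric zone lay below the interior in every library under each alternative run except zones of 2.5 Mb (5 of 6 libraries). Its adjusted p passed the threshold with the stronger 50% of each list (−0.0749), zones of 10 Mb (−0.0777), the last 100 kb left out (−0.0892), the same gene-count class (−0.0910), and the stronger 50% with empty stretches left out (−0.0505). In each of these runs its exact p was 0.03125, as in the main run, so its adjusted p moved only through the other zone tests. The centromeric zone minus the distal zone passed with zones of 10 Mb (−0.0956), the last 100 kb left out (−0.113) and the same gene-count class (−0.0984), and turned to 0.123 with the stronger 50% of each list (0.133 without empty stretches), both in 6 of 6 libraries and past the threshold (adjusted p = 0.03125). The distal zone against the interior turned negative with lists of equal length (−0.0493), the stronger 50% (−0.198), zones of 2.5 Mb (−0.00421) and without chromosome 19 (−0.0195). With empty stretches left out these were −0.0322, −0.183 and −0.00150 for equal length, stronger 50% and no chromosome 19. Both values with the stronger 50% held in 6 of 6 libraries and passed the threshold (adjusted p = 0.03125), so the distal zone was called lower there. Leaving out 1 library at a time it ran from −0.00985 to 0.0238. The cKO minus WT difference of the centromeric zone was 0.0888 with zones of 2.5 Mb (exact p = 0.1), −0.000869 without chromosome 19 (−0.000883 without empty stretches) and −0.00272 to 0.0175 without 1 library. The cKO minus WT difference of centromeric minus distal zone turned with lists of equal length (0.0132; 0.0135 without empty stretches) and zones of 2.5 Mb (0.0397), and ran from −0.0721 to 0.000488 without 1 library. For the share of stronger peaks, the same gene-count class moved both zones past the threshold (centromeric zone 2.41, distal zone −7.86 points). The distal exact p was 0.03125 in this run and in the main run, where the difference was −12.2 points. Its adjusted p thus moved only through the centromeric test adjusted with it. Without 1 library the centromeric zone ran from −0.0125 to 0.342 points. The cKO minus WT difference of the distal share turned to −1.54 with the strongest 25% of each list and −0.576 in the same gene-count class. The cause of these changes was not tested.

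The 5 Mb tiles called in the zones, 2, were 0 with unscaled percents, 0 with lists of equal length, 0 on an arcsine square root scale and 4 with the stronger 50%, and 0 to 5 without 1 library. The 1 Mb tiles called, 15, were 0, 0 and 0 under the first 3 of these and 2 to 18 without 1 library. With the stronger 50%, the 5 Mb calls were 3 higher and 1 lower of 32 zone tiles, against 34 and 33 of all 441. Without cKO1, 55 of all 472 tiles of 5 Mb rose and 63 fell, and 136 and 264 of all 2388 at 1 Mb. A replicate block gave 13 calls of 38 zone tiles at 5 Mb and 25 of 189 at 1 Mb. Over all tiles it called 103 higher and 93 lower of 472, and 240 and 326 of 2392. It called no window and no gene and left the zone differences as they were (0.00693 centromeric, 0.0477 distal), but the numbers are not shown to pair the libraries. Single genes that turned sign were Tnfrsf14 (0.115 with lists of equal length, −0.751 to 0.0903 without 1 library), Tnfrsf4 (0.00476, equal length), Tnfrsf18 (−0.118, equal length; −0.370 to 0.953 without 1 library), Tnfrsf23 (0.761 unscaled, 0.919 stronger 50%, 0.0184 arcsine; −0.560 to 0.447 without 1 library), Ccr9 (−0.336, stronger 50%; −0.235 to 0.920 without 1 library), Ccr1 (−0.251 to 2.20 without 1 library) and Stat6 (−0.000764, equal length).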
